A study of Homo sapiens with 9 samples.

Results

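SPARC, TGM2 and 8 further genes for proteins that modify the extracellular matrix were followed across 3 concentrations of 5-Aza in HT-29 cells. The 10 genes were chosen by name from a total of 23284 gene symbols and are SPARC, SPARCL1, SPOCK1, THBS1, THBS2, TGM2, TNC, CYR61, CTGF and SPP1. Each had a single entry in every library. HT-29 is an established epithelial line from a human colon cancer, and 5-Aza (5-aza-deoxycytidine) is an inhibitor of DNA methyltransferases. Cultures received the vehicle DMSO alone (0 µM 5-Aza, the control), 5 µM 5-Aza or 10 µM 5-Aza for 5 days, with 3 biological replicates in each group. All cells came from the same line, and the only difference between groups in the labels was the concentration. Paired-end RNA-Seq gave the RNA levels, in FPKM (fragments scaled by transcript length and library size, the unit of the deposited values).

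Most of these genes encode matricellular proteins, which are secreted into the matrix and act on the contact between cells and matrix rather than as its scaffold. SPARC binds collagen and calcium and loosens adhesion, thrombospondins and tenascin C bind integrins and other cell surface receptors, and CCN proteins are classic targets of the transcriptional co-activators YAP and TAZ, which act through TEAD factors. TGM2 cross-links matrix proteins such as fibronectin. SPARC is known in colon cancer as a gene that can be silenced by methylation of CpG sites at its promoter, the sites on which DNA methyltransferases act.

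The DNA just before the transcription start is shown for 5 genes, since CpG content is the sequence feature on which an inhibitor of DNA methyltransferases bears. SPARC, TNC and SPP1 were higher at 5 µM than at 0 µM in every replicate and called in at least 1 comparison, CTGF had the most TEAD motifs, and THBS1 had the most CpG sites. The sequences are the 250 bases before the start in RefSeq (build GRCh38.p14), read 5′ to 3′ on the strand of the gene, with each CG in capitals. They lie at chr5:151686916-151687165 (minus strand) for SPARC, chr9:115118158-115118407 (minus strand) for TNC, chr4:87975464-87975713 (plus strand) for SPP1, chr6:131951373-131951622 (minus strand) for CTGF and chr15:39580829-39581078 (plus strand) for THBS1.
SPARC: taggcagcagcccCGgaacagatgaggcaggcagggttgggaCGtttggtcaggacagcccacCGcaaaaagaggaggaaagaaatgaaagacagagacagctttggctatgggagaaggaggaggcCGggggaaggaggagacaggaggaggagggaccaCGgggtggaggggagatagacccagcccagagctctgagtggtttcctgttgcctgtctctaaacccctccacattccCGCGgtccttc
TNC: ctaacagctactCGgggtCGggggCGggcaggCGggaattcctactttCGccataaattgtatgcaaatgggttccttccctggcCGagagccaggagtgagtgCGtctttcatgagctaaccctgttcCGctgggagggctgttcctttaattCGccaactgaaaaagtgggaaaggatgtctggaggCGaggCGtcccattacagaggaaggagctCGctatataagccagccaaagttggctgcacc
SPP1: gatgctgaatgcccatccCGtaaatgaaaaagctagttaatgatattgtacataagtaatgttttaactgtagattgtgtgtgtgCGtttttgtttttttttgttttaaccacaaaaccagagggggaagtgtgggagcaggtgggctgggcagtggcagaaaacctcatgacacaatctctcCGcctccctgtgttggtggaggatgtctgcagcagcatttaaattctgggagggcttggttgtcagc
CTGF: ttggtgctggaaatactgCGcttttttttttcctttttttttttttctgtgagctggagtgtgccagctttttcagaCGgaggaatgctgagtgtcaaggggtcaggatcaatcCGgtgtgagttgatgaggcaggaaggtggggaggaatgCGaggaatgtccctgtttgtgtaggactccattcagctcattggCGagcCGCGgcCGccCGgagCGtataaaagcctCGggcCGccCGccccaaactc
THBS1: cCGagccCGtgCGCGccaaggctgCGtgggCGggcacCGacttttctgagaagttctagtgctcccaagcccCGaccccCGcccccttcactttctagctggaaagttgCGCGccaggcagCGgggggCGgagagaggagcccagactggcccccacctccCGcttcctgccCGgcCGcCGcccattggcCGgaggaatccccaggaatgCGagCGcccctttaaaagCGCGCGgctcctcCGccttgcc

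The printed stretches held 7 CG in SPARC, 12 in TNC, 3 in SPP1, 13 in CTGF and 24 in THBS1. Over the full window of 300 bases, which adds the first 50 transcribed bases, SPARC had 11 CG and an observed over expected CG ratio of 0.401 (the number of CG relative to that given by the C and G content). The median of the 35116 RefSeq promoters was 14 CG and a ratio of 0.579. The ratio was 0.154 in SPARCL1, 0.369 in SPP1, 0.597 in THBS2, 0.683 in CTGF, 0.731 in TNC and 0.801 in THBS1, so the 3 lowest ratios were those of SPARCL1, SPP1 and SPARC. The 7 genes matched in the promoter table thus spanned both sides of the median. TGM2, SPOCK1 and CYR61 were not matched. The TEAD motif GGAATG, or CATTCC on the other strand, was found 3 times in CTGF, 2 times in THBS2, and 1 time each in THBS1 and SPARC, and was not found in SPARCL1, TNC or SPP1. It occurred in 14% of all promoters of this length. These letters are a description, and methylation itself was not measured in these files.

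**Figure D1:**
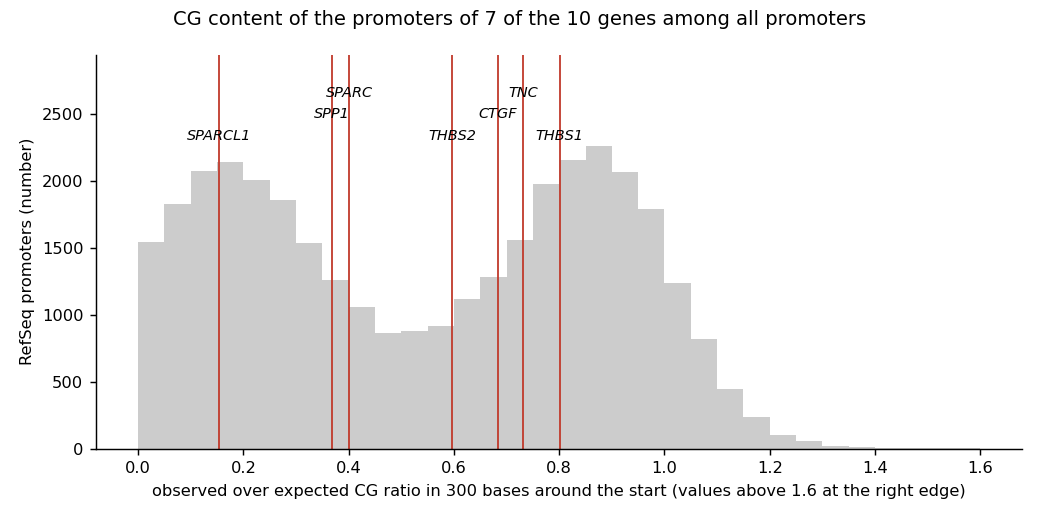
Observed over expected CG ratio (x axis) in the 300 bases around the transcription start for all 35116 RefSeq promoters (grey bars, number on the y axis), with red lines at 7 of the 10 genes. SPARCL1 (0.154), SPP1 (0.369) and SPARC (0.401) lie below the median of 0.579, and THBS2, CTGF, TNC and THBS1 lie above it.

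The libraries differed in depth. Low FPKM values step in whole fragments, which gave an estimate of 16629028 to 31146943 fragments in the control libraries, 29273930 to 34137277 at 5 µM and 12514537 to 27168316 at 10 µM. The deposited values sum to between 3.69e+09 and 5.91e+09 per library and are used here as relative values. A single fragment of SPARC was worth 87.7 to 98.8 FPKM at 5 µM, so the limit of 10 FPKM used to select genes for testing lies below 1 fragment for such a gene. All 10 markers of colon epithelium were above 0 in all 9 libraries, and their summed FPKM ranged from 83758245 to 100675512 at 0 µM, from 33278908 to 37589097 at 5 µM and from 26780002 to 46680690 at 10 µM. The keratins KRT8, KRT18 and KRT19 made up 86.3% to 87.2% of this sum at 0 µM. These keratins were called down in 5 µM vs. 0 µM, and CDX1 was called up (log2 difference 2.14). EPCAM (-0.23) and CDH1 (-0.06) did not reach an adjusted p of 0.05 in limma. CDX2 (-0.73), VIL1 (-0.47) and KRT20 (-0.46) were lower and CDH17 (0.62) higher at an adjusted p below 0.05 in limma, but by less than 2-fold. The median log2 difference over the 10 markers was -0.465.

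Of the 10 genes, 2 rose (SPARC and TNC) and 1 fell (TGM2) in 5 µM vs. 0 µM 5-Aza. A call required an adjusted p no higher than 0.05 (limma with Benjamini-Hochberg adjustment over all genes tested) together with a change of more than 2-fold. The background was 14.1% of 20051 genes called up and 2.17% called down. The 10 genes were chosen around SPARC and TGM2, which the study had already listed as changed in RNA-Seq at 5 µM. The counts are therefore no test of the set against that background. The median log2 difference was 1.18 over the 10 genes and 0.14 over all genes tested, and with SPARC set at its lower bound (given with its fragments) the former was 0.84. SPARCL1, SPOCK1 and SPP1 each had a control library listed at 0, which raises their fitted values, and the median log2 ratio of the group means was 0.58, with SPARC at its bound. In 10 µM vs. 5 µM, 3 of the 10 fell (SPARC, TNC and SPP1) and 0 rose, where 4.82% of all 20085 genes were called down and 0.129% up. TGM2 alone was higher at 10 µM than at 5 µM at an unadjusted p below 0.05, but by less than 2-fold. In 10 µM vs. 0 µM, 1 of the 9 genes tested fell (TGM2) and 0 rose, against 3.4% and 4.07% of 18928 genes, and 0 of the 9 were higher at an unadjusted p below 0.05 in limma. After median-of-ratios scaling the split of all calls in that comparison moved from 771 up and 644 down to 1125 up and 284 down. Each group enters a pair of these comparisons, so they are not independent.

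**Figure D2:**
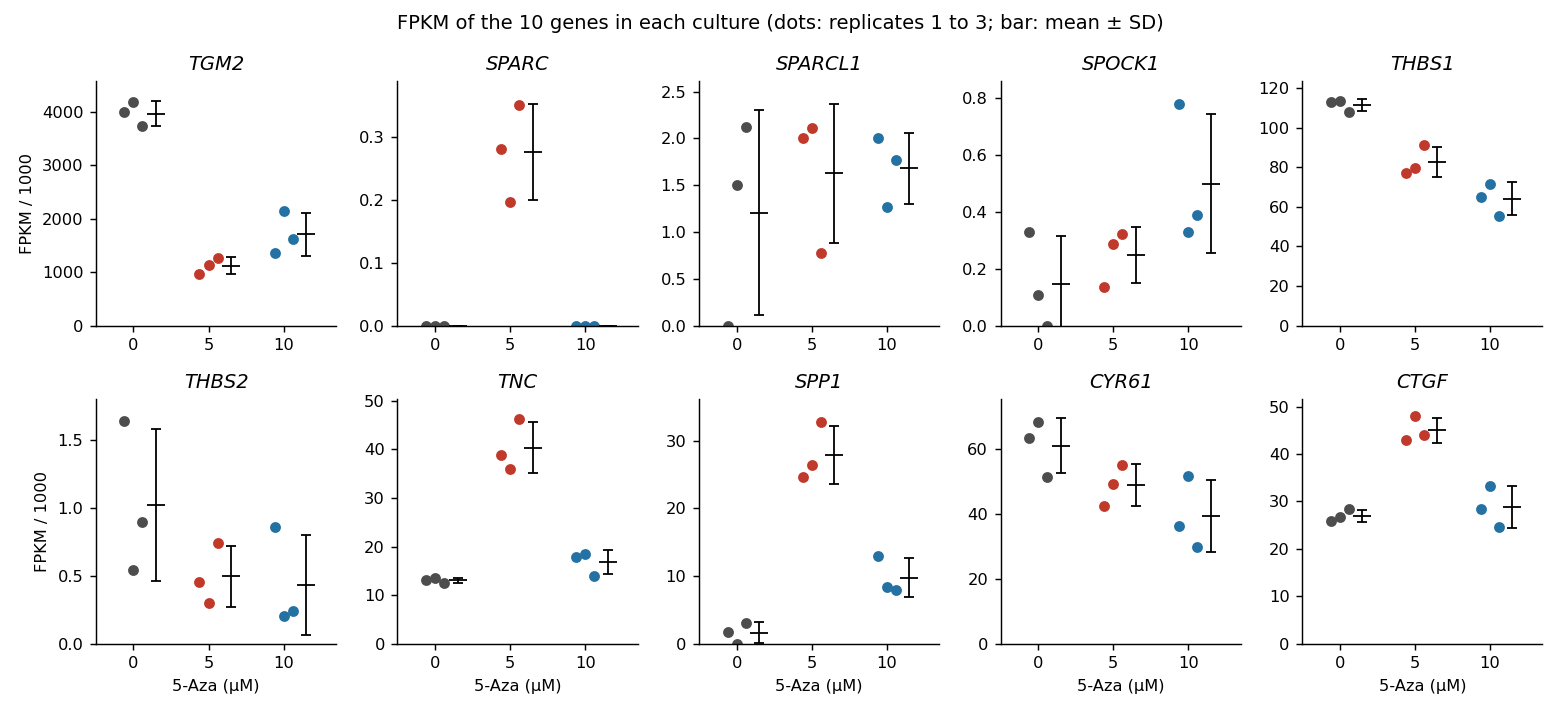
FPKM divided by 1000 (y axis, linear, from 0) of the 10 genes in the 3 replicates (dots) at 0, 5 and 10 µM 5-Aza (x axis), with the mean and SD as a bar beside them. TGM2 is lowest at 5 µM, SPARC is above 0 at 5 µM in all 3 replicates and at 0 in the other 6 libraries, and TNC, CTGF and SPP1 are highest at 5 µM.

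TGM2, transglutaminase 2, was the most abundant of the 10 genes. It lies on chromosome 20 from 36755787 to 36794980 on the minus strand (GRCh37). Its FPKM was 3998780, 4186950 and 3730380 at 0 µM, 968362, 1135110 and 1272170 at 5 µM, and 1358400, 2146020 and 1620750 at 10 µM. No value of any group overlapped those of another group: all 5 µM cultures lay lowest, the 10 µM cultures between, and the control cultures highest. By rank of FPKM among the 23284 symbols, TGM2 stood between 151 and 167 at 0 µM, between 520 and 704 at 5 µM and between 279 and 324 at 10 µM. The level thus fell from a mean of 3972040 ± 229457 (SD, n = 3) to 1125210 ± 152146 at 5 µM and was 1708390 ± 401057 at 10 µM. In the study, qRT-PCR on the same RNA samples did not bear out the fall of TGM2 at 5 µM. The fold change there pointed upward without a significant difference, while the microarray showed a fall. The log2 difference in 5 µM vs. 0 µM was -1.83 ± 0.12 (SE; 95% interval -2.12 to -1.54; limma with Benjamini-Hochberg adjustment, adjusted p = 0.000255). The corresponding value in 10 µM vs. 0 µM was -1.24 ± 0.23 (limma with Benjamini-Hochberg adjustment, adjusted p = 0.0194). That second call did not hold without the filter on low values (adjusted p = 0.0544 in limma), when control replicate 1, 2 or 3 or 10 µM replicate 3 was left out (limma adjusted p = 0.0541 to 0.089), or after median-of-ratios scaling, which brought the log2 difference to -1.0. The difference of 0.59 ± 0.22 between 10 µM and 5 µM did not pass (limma with Benjamini-Hochberg adjustment, adjusted p = 0.166). Wherever 2 groups of a gene did not overlap, here and for the other genes, p was 0.1 in the exact permutation test (2-sided), which cannot go lower with 3 cultures against 3. In a culture, fewer cells that express a gene and less RNA per cell cannot be told apart.

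SPARC, on chromosome 5 from 151040657 to 151066536 (minus strand, GRCh37), was listed at 0 in all 3 control libraries and in all 3 libraries at 10 µM. At 5 µM its FPKM was 282, 198 and 351. These values are whole multiples of 1 fragment and correspond to 3, 2 and 4 fragments, or 9 in all. SPARC ranked between 17836 and 18289 among the 23284 symbols at 5 µM, near the lower end of the genes above 0. At the rate of the 5 µM libraries, the control libraries would together have held 5.75 fragments and the 10 µM libraries 6.17, while both held 0. Against a limit of 3 fragments over a group, the level at 5 µM was at least 1.92-fold higher than at 0 µM and at least 2.06-fold higher than at 10 µM. These bounds cover counting error in the groups at 0 alone and take the 9 fragments at 5 µM as counted, and fragments need not be independent molecules. In the study, qRT-PCR on the same RNA samples detected SPARC at 5 µM but not at 0 µM, and the microarray showed no rise.

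The fitted log2 difference for SPARC was 8.08 ± 1.07 in 5 µM vs. 0 µM (limma with Benjamini-Hochberg adjustment, adjusted p = 0.00194). Its size depends on the 1 FPKM added before the logarithm and is no bound: with 1000 FPKM added it was 0.35 (adjusted p = 0.0487 in limma), short of a 2-fold change. The fitted value in 10 µM vs. 5 µM was -8.08 (limma with Benjamini-Hochberg adjustment, adjusted p = 0.0208). The latter call was lost when 5 µM replicate 1, 2 or 3 was left out (limma adjusted p = 0.0538 to 0.0858). SPARC is not tested in either comparison when at least 10 estimated fragments are required.

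The relatives of SPARC in the group showed no call. SPARCL1, a secreted SPARC-like protein with the same collagen-binding module, had FPKM values of 0, 1501 and 2123 at 0 µM, 2002, 2107 and 771 at 5 µM, and 2006, 1269.6 and 1765 at 10 µM. All groups overlapped, and the 95% interval of the log2 difference in 5 µM vs. 0 µM ran from -3.80 to 10.46, wide because control replicate 1 was listed at 0. Without that library the difference was -0.27 in place of 3.33. SPOCK1, a proteoglycan of the SPARC family, had 330.4, 109 and 0 FPKM at 0 µM, 137, 289 and 321 at 5 µM, and 780.0, 329 and 388 at 10 µM. This corresponded to 3, 11 and 14 fragments in the control, 5 µM and 10 µM groups. All 10 µM values of SPOCK1 lay above all 5 µM values, with a log2 difference of 0.99 ± 0.77 that did not pass (limma with Benjamini-Hochberg adjustment, adjusted p = 0.456).

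**Figure D3:**
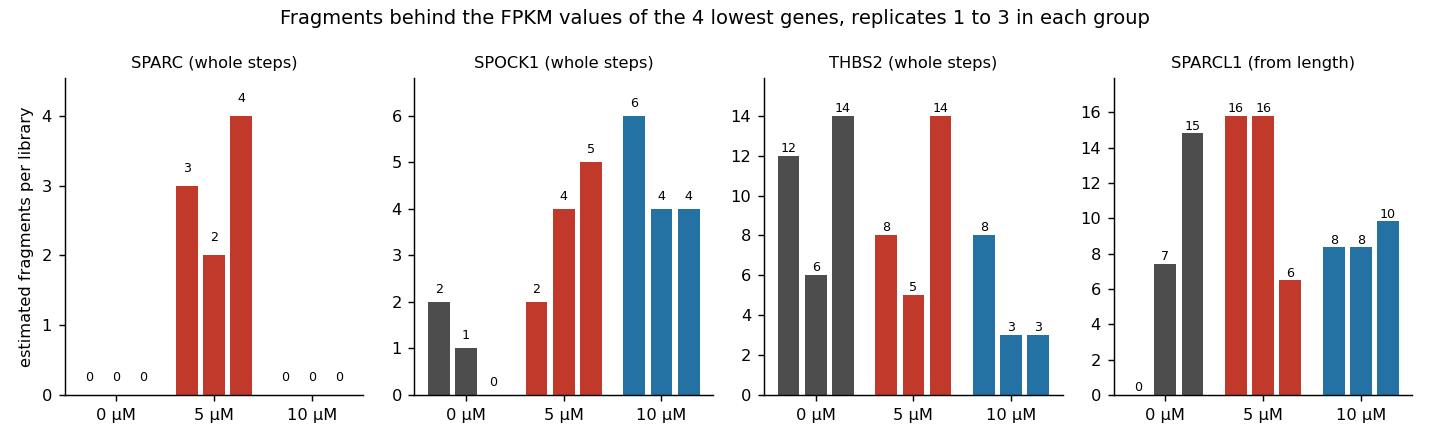
Estimated fragments per library (y axis, from 0) for SPARC, SPOCK1, THBS2 and SPARCL1, with 1 bar for each of the 3 replicates at 0, 5 and 10 µM. SPARC, SPOCK1 and THBS2 are whole numbers read from the steps of the FPKM values and SPARCL1 is estimated from transcript length. SPARC has 3, 2 and 4 fragments at 5 µM and 0 in the other libraries.

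The thrombospondins lay far apart in level. THBS1, a secreted glycoprotein that binds CD36 and CD47 and can activate TGF-beta, had FPKM values of 113038, 113699 and 107796 at 0 µM, 77050.3, 79469.5 and 91145 at 5 µM, and 65174, 71799.9 and 55184 at 10 µM. In these unscaled values, each group lay wholly below the one before it as the concentration went up. After median-of-ratios scaling the 5 µM and 10 µM values overlapped. The median log2 difference in 10 µM vs. 5 µM was -0.24 among all genes above 0 in all 6 libraries. The log2 difference was -0.44 ± 0.09 in 5 µM vs. 0 µM (limma with Benjamini-Hochberg adjustment, adjusted p = 0.00942) and -0.81 ± 0.14 in 10 µM vs. 0 µM (adjusted p = 0.016). Both fell short of a 2-fold change and are no call, and the step from 5 µM to 10 µM of -0.37 did not pass (limma with Benjamini-Hochberg adjustment, adjusted p = 0.191). THBS2, a close homolog that also inhibits angiogenesis, had 1635, 541 and 893 FPKM at 0 µM, 453, 298 and 741 at 5 µM, and 857, 203 and 240.2 at 10 µM. These values rested on 3 to 14 fragments per library. The groups of THBS2 overlapped in every comparison, and the interval of its log2 difference in 5 µM vs. 0 µM ran from -2.60 to 0.62.

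TNC, tenascin C, is a large hexameric matrix protein that is induced in wounds and tumor stroma. Its FPKM was 13042, 13543 and 12514 at 0 µM, 38859, 36003 and 46266 at 5 µM, and 17949, 18418 and 13940.4 at 10 µM. Cultures at 5 µM were highest, and the 10 µM cultures lay just above the controls without overlap. The mean rose from 13033 ± 515 (SD, n = 3) to 40376 ± 5297, a log2 difference of 1.62 ± 0.14 (SE; 95% interval 1.29 to 1.96; limma with Benjamini-Hochberg adjustment, adjusted p = 0.000498). From 5 µM to 10 µM it fell by 1.27 on the log2 scale (limma with Benjamini-Hochberg adjustment, adjusted p = 0.0132), a call lost when 5 µM replicate 1, 2 or 3 was left out (limma adjusted p = 0.0534 to 0.0821). The difference between 10 µM and 0 µM, 0.35 ± 0.23, did not pass (limma with Benjamini-Hochberg adjustment, adjusted p = 0.3). TNC lies on chromosome 9 from 117781854 to 117880486 (minus strand, GRCh37), and its values rested on 131 to 1190 estimated fragments per library.

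SPP1, osteopontin, is a secreted phosphoprotein that binds integrins and CD44. Its FPKM was 1775, 0 and 3128 at 0 µM, 24639, 26331.5 and 32758.5 at 5 µM, and 13034, 8336 and 7989 at 10 µM. No group overlapped another, in the order 0, 10 and 5 µM. The ratio of the group means was 17.1 in 5 µM vs. 0 µM and 5.99 in 10 µM vs. 0 µM. The fitted log2 difference in 5 µM vs. 0 µM was 7.29 ± 3.00 and was not called (limma with Benjamini-Hochberg adjustment, adjusted p = 0.102), because the zero in control replicate 2 made the spread large on the log scale. Without that library the difference was 3.555 (limma with Benjamini-Hochberg adjustment, adjusted p = 0.0016), and with 1000 FPKM added it was 3.67 (adjusted p = 0.00127). Between 10 µM and 0 µM the value was 5.75 (limma with Benjamini-Hochberg adjustment, adjusted p = 0.185), and 2.23 with 1000 FPKM added (adjusted p = 0.0282).

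From 5 µM to 10 µM, SPP1 fell by 1.54 on the log2 scale (SE 0.26; limma with Benjamini-Hochberg adjustment, adjusted p = 0.0185). Leaving out 5 µM replicate 1, 2 or 3 raised the adjusted p above the limit (limma, 0.0696 to 0.111), and with all 9 libraries in a single fit it was 0.714. The SPP1 values rested on 109 to 155 estimated fragments per library at 5 µM, 25 to 30.8 at 10 µM and at most 12.3 at 0 µM. The gene lies on chromosome 4 from 88896819 to 88904684 on the plus strand (GRCh37).

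**Figure D4:**
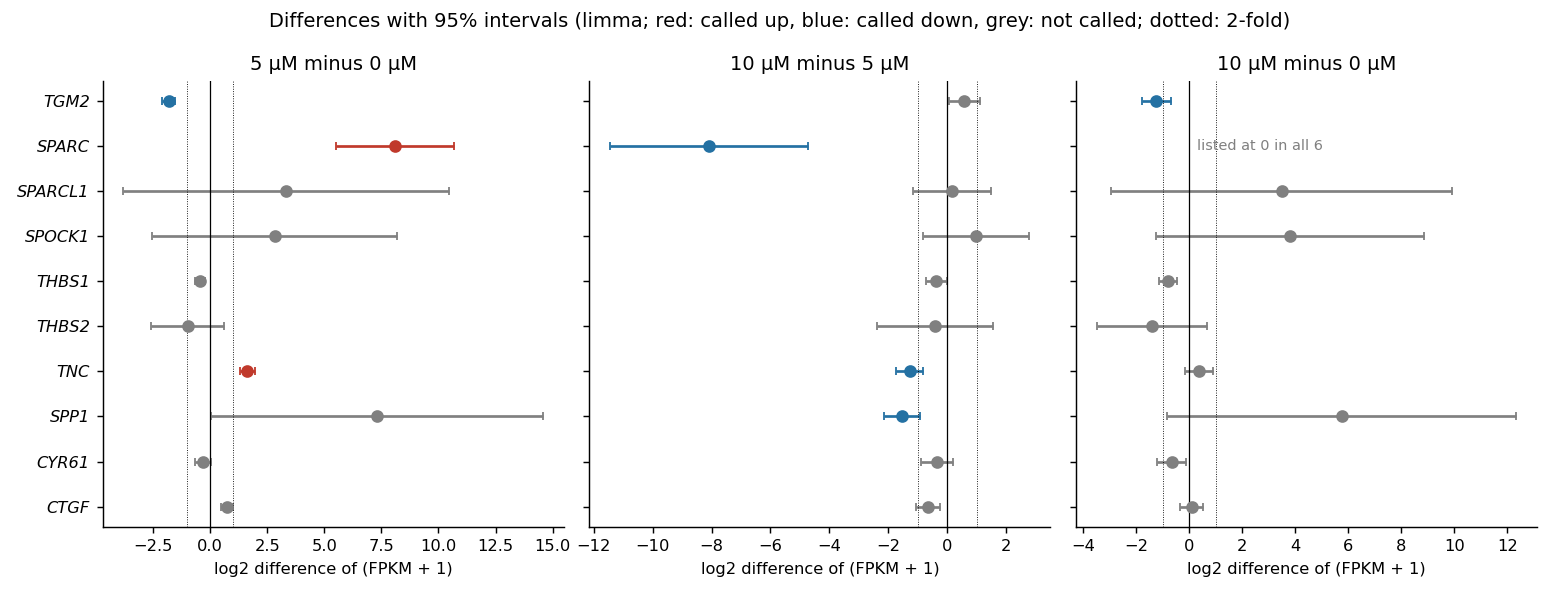
Log2 differences of (FPKM + 1) with 95% intervals (x axis) for the 10 genes (y axis) in 3 comparisons, from limma, with called genes in red (up) or blue (down), other genes in grey and dotted lines at a 2-fold change. In the comparisons with 0 µM, SPARCL1, SPOCK1 and SPP1, each with a control library listed at 0, have wider intervals than TNC and TGM2, and SPARC has no value in 10 µM vs. 0 µM.

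The CCN proteins CTGF and CYR61 differed in pattern. CTGF, now named CCN2, promotes matrix production and is a textbook YAP and TAZ target. Its FPKM was 25772.5, 26789 and 28330.5 at 0 µM, 42856, 47918.5 and 44094 at 5 µM, and 28446, 33329 and 24612 at 10 µM. Cultures at 5 µM lay above all others. The 0 µM and 10 µM cultures overlapped in these unscaled values, but after median-of-ratios scaling all 10 µM values lay above the controls. The log2 difference was 0.74 ± 0.10 in 5 µM vs. 0 µM (limma with Benjamini-Hochberg adjustment, adjusted p = 0.00215), a difference past the p threshold but below 2-fold. Between 10 µM and 5 µM it was -0.65 ± 0.17 and did not pass (limma with Benjamini-Hochberg adjustment, adjusted p = 0.0741). CYR61, now CCN1, is an adhesive protein for integrins and another YAP and TAZ target. It had 63415, 68218 and 51500.1 FPKM at 0 µM, 42363, 49231 and 55125 at 5 µM, and 36341, 51652 and 29943 at 10 µM. Neighbouring groups of CYR61 overlapped, and its log2 difference in 5 µM vs. 0 µM was -0.32 (95% interval -0.68 to 0.04; limma with Benjamini-Hochberg adjustment, adjusted p = 0.136). The 95% intervals of CTGF and CYR61 in that comparison did not overlap, although the difference between the genes was not tested.

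The genes whose pattern was most like that of each member were found among 15277 symbols above 0 in all 9 libraries, by the root mean square difference of log2 values centred per gene. For TNC these were LOX (0.123), which encodes the collagen cross-linking enzyme lysyl oxidase, and HSPA1L (0.124). LOX had 3382 to 3830 FPKM at 0 µM and 9403 to 11973 at 5 µM. For TGM2 they were UGT1A10 (0.172) and GLTSCR2 (0.175), for CTGF TPP1 (0.073) and AGT (0.077), for CYR61 PLAGL2 (0.044) and XPO7 (0.045), for THBS1 C1orf106 (0.049) and GRB10 (0.062), and for THBS2 CPSF4L (0.426) and UGT1A3 (0.467). UGT1A genes share exons, so their FPKM values are uncertain. The remaining 4 genes had a library listed at 0 and were not compared.

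A further 103 genes of the same families and pathways were examined, of which 98 were tested in 5 µM vs. 0 µM. There, 30 were called up and 4 down, against 14.1% and 2.17% of all genes, with a median log2 difference of 0.54 over the 98 genes. Of the 30, 11 had at least 1 library listed at 0. Between 5 µM and 10 µM, 0 of 99 were up and 9 were down (median -0.65), against 0.129% and 4.82% of all genes. For 10 µM vs. 0 µM, 12 of 99 were up and 7 down (median -0.09), against 4.07% and 3.4%. The medians over all genes tested were 0.14, -0.31 and -0.15, respectively.

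Within the SPARC family, SPOCK2 was the only 1 of 5 further genes called in 5 µM vs. 0 µM, with a log2 difference of 1.47 (limma with Benjamini-Hochberg adjustment, adjusted p = 0.0023). In that comparison, 14.1% of all genes were called up and 2.17% down. Of 4 further CCN genes 2 were called up, among them NOV with 1.86 (adjusted p = 0.00142 in limma). Of 6 genes of periostin and related proteins, 4 were called up (ECM1, POSTN, FBLN2 and FBLN5). POSTN, FBLN2 and FBLN5 each had at least 1 control library listed at 0. TGFBI, the most abundant of the 6, was not called (0.28, adjusted p = 0.0588 in limma). ECM1, a secreted glycoprotein, was the best covered of the 4 called genes at 10627, 8891 and 9573 FPKM at 0 µM, 53992, 60561 and 61529 at 5 µM, and 26408, 33383 and 27149.5 at 10 µM. It rose by a log2 difference of 2.60 in 5 µM vs. 0 µM (limma with Benjamini-Hochberg adjustment, adjusted p = 0.000141) and was also called up in 10 µM vs. 0 µM at 1.58 (adjusted p = 0.00872 in limma).

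Among 23 collagen and adhesive matrix genes, 7 were called up and 1 down in 5 µM vs. 0 µM. FN1, fibronectin, a substrate of TGM2, rose by 1.83 and COL6A1, a collagen VI chain, by 4.28 on the log2 scale (limma with Benjamini-Hochberg adjustment, adjusted p = 0.00268 and 0.0015). COL17A1 fell by 1.06 (adjusted p = 0.000787 in limma). It was among the 4 most abundant of the list. The rest of these, LAMB3 (-0.39), LAMA5 (-0.62) and HSPG2 (-0.59), were lower by less than 2-fold (limma adjusted p = 0.027, 0.00743 and 0.00852). The median log2 difference of the 23 was 0.773. Of 20 receptors tested, 3 were called up and 3 down, beside 14.1% and 2.17% of all genes. The receptor genes called down were CD44, which binds osteopontin, with a log2 difference of -1.25, and the integrin genes ITGB4 (-1.10) and ITGA2 (-1.01) (limma with Benjamini-Hochberg adjustment, adjusted p = 0.00038, 0.000445 and 0.00295). ITGB4 was among the 4 most abundant, and the rest of these, ITGB1 (-0.52), ITGA3 (-0.66) and ITGB5 (-0.70), were lower by less than 2-fold (limma adjusted p = 0.0182, 0.00162 and 0.00108). Those called up (ITGA5, ITGB3 and STAB1) rested on at most 25.1 estimated fragments per library. The median log2 difference of the 20 was -0.163.

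In the YAP and TAZ list, which CTGF and CYR61 represent among the 10 genes, 4 of 19 genes were called up in 5 µM vs. 0 µM and 0 down, beside the same shares of all genes. WWTR1, which encodes TAZ, rose by 3.44 and the receptor tyrosine kinase AXL by 1.70 on the log2 scale (limma with Benjamini-Hochberg adjustment, adjusted p = 0.00116 and 0.0026). Both fell from 5 µM to 10 µM, with log2 differences of -1.87 and -1.82 (adjusted p = 0.0424 and 0.00416 in limma). The 4 most abundant genes of the list were not called in 5 µM vs. 0 µM: YAP1 (-0.14), AJUBA (-0.23), AMOTL2 (-0.69) and TEAD3 (0.25). At 5 µM the mean FPKM was 6301 for WWTR1 and 472460 for YAP1. The median log2 difference of the list in 5 µM vs. 0 µM was 0.24. Of 8 TGF-beta ligands and activators, 4 were called up and 0 down, beside 14.1% and 2.17% of all genes. Among those called up were TGFB3 with a log2 difference of 2.13 and LTBP2 with 1.98 (limma with Benjamini-Hochberg adjustment, adjusted p = 0.000679 and 0.00144). LTBP3, the most abundant of the 8, and LTBP1 were lower, with log2 differences of -0.97 and -0.98 just short of 2-fold (limma adjusted p = 0.000547 and 0.0104).

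**Figure D5:**
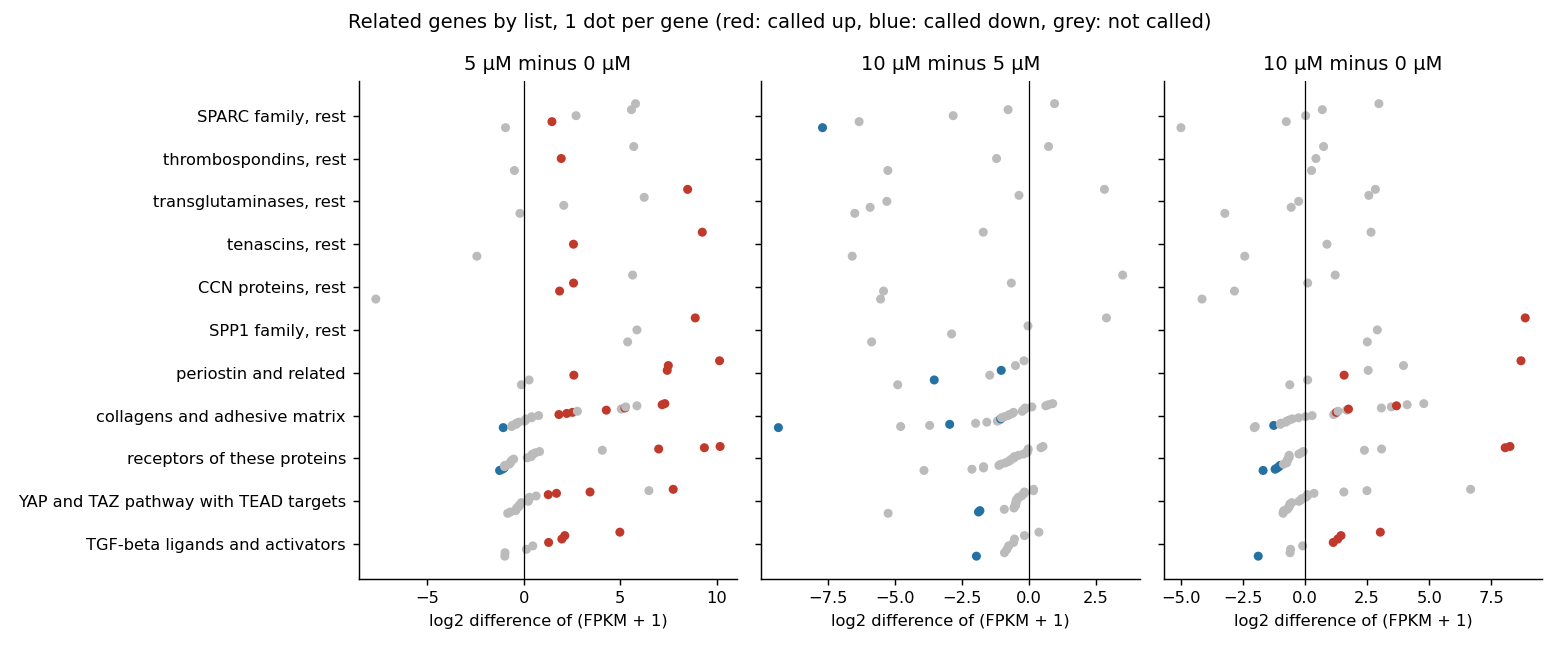
Log2 differences of (FPKM + 1) (x axis) for the related genes, 1 dot per gene, grouped by list (y axis) in 3 comparisons, with called genes in red (up) or blue (down) and others in grey. In 5 µM vs. 0 µM 30 genes are called up and 4 down, in 10 µM vs. 5 µM 0 and 9, and in 10 µM vs. 0 µM 12 and 7.

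The summed levels of fibroblast and endothelial markers, but not of leukocyte markers, were highest at 5 µM. The sum of 8 fibroblast markers was 23011 to 32355 FPKM at 0 µM, 82825 to 89610 at 5 µM and 45354 to 52496 at 10 µM, in the order of SPP1. COL1A1 and LUM made up most of it, PDGFRA was at 0 in all 9 libraries, and DCN was at 0 in all 3 libraries at 5 µM. Of 7 fibroblast markers tested in 5 µM vs. 0 µM, 4 were called up (COL1A1, COL1A2, LUM and PDGFRB), beside 14.1% of all genes. COL1A2 and PDGFRB had control libraries listed at 0. The sum of 5 endothelial markers was 5788 to 7547, 19918 to 27001 and 6965 to 8181, respectively. In 5 µM vs. 0 µM, 4 of the 5 were called up, beside 14.1% of all genes. CDH5 was among them, with at most 4.66 estimated fragments per library and all 3 control libraries at 0. The sum of 6 leukocyte markers, mostly LYZ, was 8697586 to 8951459, 4645582 to 5498071 and 4743041 to 6911111, lower in both treated groups. Even so, 3 of the 6 (CD3E, CD79A and CD68) were called up in 5 µM vs. 0 µM. CD68, next to LYZ in level, had means of 125260, 671080 and 246110 FPKM at 0, 5 and 10 µM, so the order of the sum is that of LYZ. CD3E rested on at most 3.76 estimated fragments per library, with all 3 control libraries at 0. The part of these markers in the differences of SPARC, TNC, SPP1, CTGF and TGM2 was not tested. The 5 µM libraries also had the most symbols above 0 (18761 to 18957, against 16373 to 16958 at 0 µM and 17114 to 17592 at 10 µM).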

How the data were processed

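Per the study's methods, reads were quality-filtered (FASTX-Toolkit) and mapped with TopHat to hg19, and FPKM values were computed with Cufflinks. The deposited files used here hold FPKM values, and raw counts were not used. Repeated symbols (543 of 23284) were summed. Fragments were estimated from the step of low values: at 12 microRNA genes of 110 nucleotides, 46 of 46 values were whole within 0.01. The step was the lowest of these values in each library, so that value is whole by definition. Longer genes used annotated transcript length. Of 1383 genes with clean steps of their own, 954 lay within 15% of this length relation, so fragments estimated from length are approximate. Symbols reaching 10 FPKM in any library of either group were compared on log2(FPKM + 1) with limma 3.58.1 (eBayes with trend) in R 4.3.3, on the 6 libraries of each comparison and over all genes, with Benjamini-Hochberg adjustment. The added 1 FPKM is worth less than 1 fragment, so fold changes of genes with a library at 0 are not bounds. Single genes also had an exact permutation test. P-values measure the spread between 3 cultures, with the variance of each gene drawn toward that of genes of similar level. For SPARC in 5 µM vs. 0 µM the SE was thus 1.07 with the filter on low values and 0.23 without it. Named genes were the 10 genes, list genes that were called or most abundant, and the 2 most alike genes. The 10 genes and the lists were chosen with earlier results of these data known. The scripts were tested on simulated data. Alternatives were other pseudocounts, filters, thresholds, scalings, all 9 libraries together, the replicate block, the largest of repeated entries, and each replicate left out. Positions are from GENCODE on GRCh37; promoters are from RefSeq.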

Additional observations from a re-analysis of the deposited data

How the results depend on the processing

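The calls of TGM2, TNC and SPARC in 5 µM vs. 0 µM held in every alternative, except that SPARC was not called with 1000 FPKM added and was not tested with at least 10 estimated fragments, which left 1 gene up. Without a fold threshold, 2 of the 10 were called down in 5 µM vs. 0 µM and 2 in 10 µM vs. 0 µM, where THBS1 joined TGM2. The 3 genes called down in 10 µM vs. 5 µM became 0 with limma's treat test against 2-fold and 0 with the replicate block, and 0 to 3 when a replicate was left out. The single call down in 10 µM vs. 0 µM (TGM2) became 0 without the filter, with treat and after median-of-ratios scaling, and 0 to 1 when a replicate was left out. With 1000 FPKM added, 1 gene (SPP1) was called up there. Of 488 member differences recomputed, 453 kept direction and call, 25 lost and 6 gained the call, and 4 changed sign, none of them called.

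Leaving out a replicate moved the SPARCL1 log2 difference between -0.27 and 5.26 in 5 µM vs. 0 µM (negative without control replicate 1), between -0.32 and 0.41 in 10 µM vs. 5 µM (negative without 5 µM replicate 3) and between -0.11 and 5.41 in 10 µM vs. 0 µM, and that of CTGF between -0.026 and 0.19 in 10 µM vs. 0 µM. Replicate numbers did not pair the cultures: same-number correlations of deviations from the group means were -0.074 to 0.086 (9 pairs) and others -0.156 to 0.1 (18 pairs). With the replicate block, 407 genes in place of 969 were called down and 11 in place of 26 up in 10 µM vs. 5 µM, and the 10 genes had 2 up and 1 down in 5 µM vs. 0 µM and 1 down in 10 µM vs. 0 µM.

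Over all genes, calls up and down were 4263 and 3553 in 5 µM vs. 0 µM without a fold threshold and 1463 and 70 with treat. For 10 µM vs. 5 µM, treat gave 7 up and 374 down, no filter 17 up, the fragment minimum 13 up and no fold threshold 64 up. For 10 µM vs. 0 µM there were 145 up and 16 down with treat, 488 and 271 without the filter, 1174 up with all 9 libraries and 1837 down without a fold threshold. When a replicate was left out, calls down in 10 µM vs. 5 µM ranged from 176 (without 5 µM replicate 3) to 1873 (without 10 µM replicate 2), with 414 and 488 without 5 µM replicates 1 and 2, and calls up from 12 to 64. Calls down in 10 µM vs. 0 µM ranged from 165 (without control replicate 2) to 1500 (without 10 µM replicate 2), with 225, 388, 253 and 228 without control replicates 1 and 3 and 10 µM replicates 1 and 3, and calls up from 337 (without 10 µM replicate 3) to 819. Median-of-ratios scaling moved the all-gene median by over 0.1: from -0.24 to -0.04 in 10 µM vs. 5 µM and from -0.23 to 0.01 in 10 µM vs. 0 µM, among genes above 0 in all 6 libraries. The share of calls that were up in the latter went from 54.5% (771 up, 644 down) to 79.8% (1125 up, 284 down), and in 10 µM vs. 5 µM 55 genes were up. No member changed sign with scaling. Causes were not tested. SPARC, SPOCK1 and THBS2 rest on at most 14 fragments per library, which limits their precision.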
